A study of Mus musculus with 6 samples.

Results

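The facilitative sugar transporters of the Slc2a family and ketohexokinase (Khk), the enzyme that phosphorylates fructose, were followed in the livers of 6 mice. The 10 genes were chosen by name, with earlier results of these data known. They were Slc2a1, Slc2a2, Slc2a3, Slc2a4, Slc2a5, Slc2a6, Slc2a8, Slc2a9, Slc2a10 and Khk, out of 18419 genes with a count. All 6 mice were male Mettl14 f/f mice on a high fat diet (HFD), which was started at 8 weeks of age and was given for 10 weeks before a single vector injection. In 3 mice the vector was AAV8-TBG-Cre (labelled METTL14 KO) and in 3 it was AAV8-TBG-GFP (labelled WT), and livers were collected 8 weeks later. The thyroxine-binding globulin promoter directs Cre to hepatocytes, so the floxed alleles of other liver cells are retained.

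Slc2a proteins are membrane carriers that let sugars move down their gradient without spending energy. In liver, GLUT2 (Slc2a2) moves glucose into hepatocytes after a meal and out of them during fasting, and it also carries fructose. Fructose that enters a hepatocyte is trapped by Khk as fructose 1-phosphate, a route known for feeding lipid synthesis without the control points of glycolysis. The remaining carriers differ in substrate and place: GLUT1 (Slc2a1) and GLUT3 (Slc2a3) serve basal glucose uptake, GLUT4 (Slc2a4) is the insulin-responsive carrier of muscle and fat, GLUT5 (Slc2a5) carries fructose, and GLUT9 (Slc2a9) carries urate.

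Regulatory sequence upstream of 8 of the 10 genes was available from RefSeq on GRCm38, and 250 bases before each transcription start were searched on both strands for the letters CACGTG (an E-box, the core of the element bound by carbohydrate-response factors) and for the letters CCAAT. The E-box letters occurred upstream of 1 of the 8, Khk, and in 6.02% of 32851 promoters of the same length. CCAAT occurred upstream of 4 of the 8 and in 33.8% of all promoters. The stretches around the matches of the most abundant pair of genes are shown as examples. This pair shared no match, since Khk had no CCAAT and Slc2a2 no CACGTG, and Slc2a5 had neither. Capitals mark CACGTG in Khk (chr5:30921476-30921505, plus strand, where the match begins 71 bases before the start at position 30921559 and lies inside the annotated span of the gene) and the pair of CCAAT matches in Slc2a2, read on the opposite strand (chr3:28697824-28697853, plus strand shown, matches beginning 77 and 56 bases before the start). A match of letters is a description and not a measured binding site.
Khk: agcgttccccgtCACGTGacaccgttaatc
Slc2a2: tcATTGGggtaaagggtgtattgATTGGat

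The libraries held between 20356440 and 21010508 expected counts. Levels below are given either as CPM, counts scaled to library size with TMM factors that correct for composition, or as FPKM, which also divides by transcript length and allows genes to be compared with each other. A gene counted as called when its fold change was 1.2 or more in either direction and the unadjusted edgeR quasi-likelihood p-value was under 0.05. The targeted gene, Mettl14, was at 6.30, 6.43 and 5.81 CPM in the AAV8-TBG-GFP mice and at 4.96, 5.38 and 4.86 CPM in the AAV8-TBG-Cre mice. The groups did not overlap on that scale, but they overlapped in FPKM, and the log2 fold change of -0.29 (SE 0.15) had an edgeR adjusted p-value of 0.337, so groups are named by their labels throughout. Library names came in a short and a long form, which neither the labels nor the methods explain. Names were short for GFP replicates 1 and 2 and for Cre replicate 1, and long for the other 3 libraries. Summed markers of macrophages were 225.0 to 255.6 CPM in AAV8-TBG-GFP and 359.6 to 588.9 CPM in AAV8-TBG-Cre livers, with 8 of 11 called higher. Cholangiocyte markers were 73.2 to 129.7 against 310.6 to 583.9 CPM, with 9 of 9 called higher. The 8 hepatocyte markers summed to 101400 to 119400 CPM against 80680 to 101500 CPM, with 1 of 8, Ttr, called lower and 0 higher. Their log2 fold changes were negative for 6 and positive for 2. Alb was the largest part of these sums, at 62440 to 80790 CPM against 54610 to 67850 CPM, and was not called (log2 fold change -0.19). Across all genes tested, 20.5% were called in either direction and 8.41% were called lower in Cre livers. In whole liver, fewer cells of a type and less RNA per cell cannot be told apart.

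Khk and Slc2a2 stood far above the other 8 genes. Khk averaged 181.8 ± 65.9 FPKM (SD, n = 6) and Slc2a2 126.0 ± 26.2 FPKM, and their ranges overlapped although Khk was the higher of the pair in 5 of 6 livers. Slc2a2 made up between 76.0% and 81.8% of the summed FPKM of the 9 Slc2a genes in every liver. Slc2a9 followed at 14.1 ± 2.20 FPKM, Slc2a8, an intracellular hexose carrier, at 8.10 ± 0.60 and Slc2a1 at 5.55 ± 1.23 FPKM. The ranges of these genes did not overlap with their neighbours in that stretch of the order. Slc2a5 averaged 2.98 ± 1.12 FPKM and lay below Slc2a1 in 6 of 6 livers, with overlapping ranges. At the bottom, Slc2a4 (0.71 ± 0.94 FPKM), Slc2a6 (0.21 ± 0.10), Slc2a3 (0.13 ± 0.06) and Slc2a10 (0.07 ± 0.08) had ranges that overlapped with those of their neighbours. Slc2a4 was above Slc2a6 in 4 of 6 livers, Slc2a6 above Slc2a3 in 5 of 6, and Slc2a3 above Slc2a10 in 6 of 6.

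**Figure D1:**
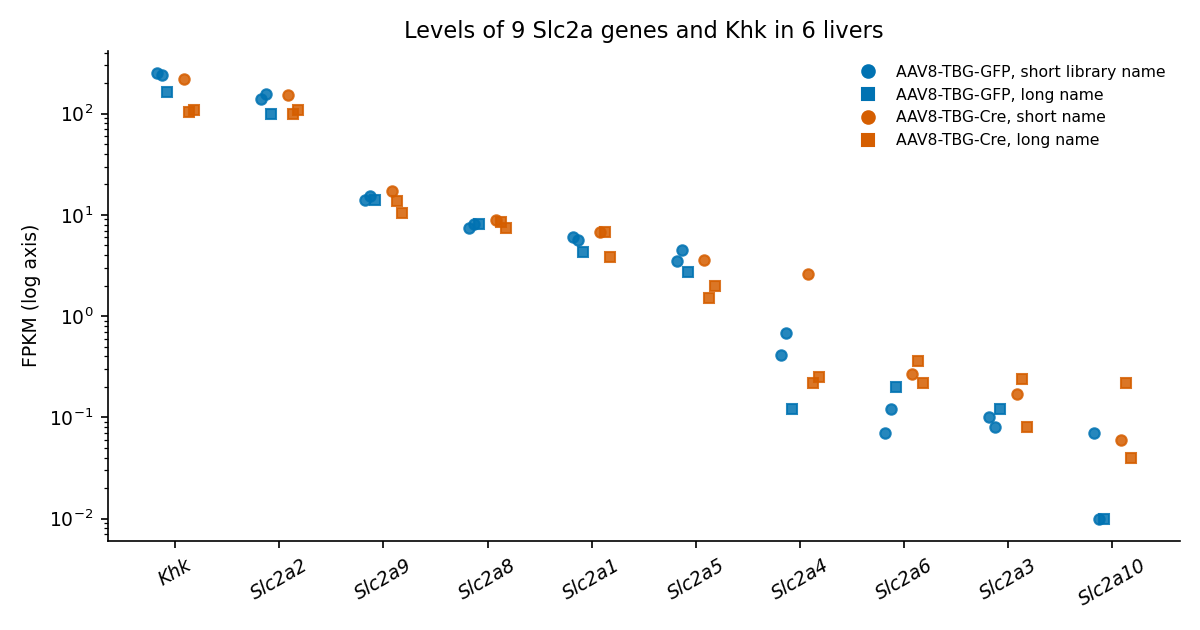
FPKM on a log axis for the 10 genes in 6 livers, ordered by mean, with color for the vector and marker shape for the form of the library name. Khk and Slc2a2 lie at or above 99.79 FPKM in every liver, and Slc2a6, Slc2a3 and Slc2a10 stay at or under 0.36 FPKM.

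Which of these genes differed by vector was tested for the 7 genes with enough counts. None of the 7 was called, while 20.5% of the 13431 genes tested were called in either direction and 8.41% were called lower in Cre livers. None passed an adjusted p-value of 0.05 either, against 0.931% of all genes, and in 0 of the 7 were the groups free of overlap, against 27.0% of all genes. The log2 fold change was negative for 6 of the 7 with a median of -0.24, and over all genes 51.0% were negative with a median of -0.01. DESeq2 tested all 10 genes, and 2 of the 10 were called, Slc2a5 and Khk, against 16.2% of the 18416 genes tested there.

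Among the class I carriers, which are mainly glucose carriers, Slc2a2 measured 370, 423 and 283 CPM in the GFP livers (replicates 1, 2 and 3, an order kept throughout) and 389, 219 and 285 CPM in the Cre livers. The lowest liver was a Cre liver, but Cre replicate 1 exceeded GFP replicates 1 and 3. The log2 fold change was -0.27 (SE 0.24, 95% interval -0.82 to 0.29) with an edgeR adjusted p-value of 0.569. Slc2a1 measured 16.1, 15.3 and 12.3 CPM against 17.3, 14.8 and 10.1 CPM, so that Cre livers were both the highest and the lowest. Its log2 fold change was -0.05 (SE 0.21, 95% interval -0.54 to 0.43, edgeR adjusted p = 0.914), and its sign turned under upper quartile scaling (0.01) and in FPKM (0.08).

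Slc2a4 depended on 1 liver. It measured 1.22, 2.04 and 0.366 CPM in the AAV8-TBG-GFP livers and 7.21, 0.534 and 0.722 CPM in the AAV8-TBG-Cre livers, that is 151 counts in Cre replicate 1 against 7 to 40 in the other 5 libraries. The log2 fold change of 1.21 (SE 1.02, 95% interval -1.17 to 3.58) had an edgeR adjusted p-value of 0.547 and became -0.95 without Cre replicate 1. The 5 adipocyte markers summed to 2.72 CPM in Cre replicate 1, 1.81 and 2.12 CPM in the other Cre livers and 10.2 to 26.0 CPM in GFP livers. Most of the GFP sums was Cfd, and the other 4 markers summed to 1.96 CPM in Cre replicate 1, the highest value, against 0.663 to 1.49 CPM in the other 5 livers. Among them only Lep was highest in Cre replicate 1, at 1.00 CPM against 0.306 to 0.578 CPM elsewhere. Adipoq was highest in Cre replicate 2, at 0.575 CPM against 0.477 CPM in Cre replicate 1. Plin1 and Retn were highest in GFP replicate 3, at 0.419 and 0.209 CPM against 0.334 and 0.143 CPM in Cre replicate 1. The part of adipocyte RNA in the Slc2a4 value was not tested. Among 4 skeletal muscle markers 2, Ckm among them, had no count in any library. None of the 4 had a count in Cre replicate 1, and Acta1 (3 counts) and Mb (1 count) were counted only in Cre replicate 2.

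Slc2a3, the carrier known from neurons and leukocytes, had 8, 7 and 10 counts in AAV8-TBG-GFP and 14, 20 and 7 counts in AAV8-TBG-Cre livers. It was too low for the edgeR test, and the exact two-sided permutation test of its CPM gave p = 0.4. With 3 mice per group that test cannot go below 0.1.

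The fructose carrier Slc2a5 and Khk had the largest negative differences among the tested genes. Khk measured 381, 374 and 265 CPM in AAV8-TBG-GFP and 316, 129 and 162 CPM in AAV8-TBG-Cre livers. Cre replicates 2 and 3 lay below every GFP liver, whereas Cre replicate 1 lay between GFP replicate 3 and the other two. The mean was 339.7 ± 65.0 CPM against 202.5 ± 99.98 CPM (SD, n = 3 each), and the log2 fold change was -0.75 (SE 0.33, 95% interval -1.52 to 0.02) with an edgeR p-value of 0.0556 and an adjusted p-value of 0.251. Slc2a5 measured 11.4, 14.9 and 9.32 CPM against 10.98, 4.03 and 6.21 CPM. Here too Cre replicate 1 alone overlapped with the GFP livers. The log2 fold change was -0.75 (SE 0.35, 95% interval -1.57 to 0.07), with an edgeR p-value of 0.0679 and an adjusted p-value of 0.276. Without Cre replicate 1, the edgeR log2 fold changes were -1.23 for Khk (adjusted p = 0.0287) and -1.22 for Slc2a5 (adjusted p = 0.0477), and 4 of the 7 genes were called, with Slc2a2 (-0.51) and Slc2a9 (-0.47). In that fit 27.3% of all genes were called, and 928 of 13678 genes passed an adjusted p-value of 0.05. Cre replicate 1 was the only Cre library with a short name. Without it all remaining Cre libraries had long names, so these differences mix vector and name form more than the main fit does.

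Slc2a9, the urate carrier of class II, measured 49.96, 55.5 and 52.6 CPM in AAV8-TBG-GFP livers and 57.3, 40.0 and 36.2 CPM in AAV8-TBG-Cre livers. Its highest and its lowest value were both in Cre livers. The log2 fold change was -0.24 (SE 0.17, 95% interval -0.65 to 0.16, edgeR adjusted p = 0.471).

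Class III carriers sit mainly on internal membranes. Slc2a8 was the steadiest of the tested genes, at 15.9, 18.0 and 18.5 CPM against 18.3, 15.2 and 15.8 CPM, with overlapping groups. Its log2 fold change was -0.09 (SE 0.12, 95% interval -0.37 to 0.19, edgeR adjusted p = 0.726), and it was 0.07 in FPKM, where the median of all genes was itself shifted to 0.11. Slc2a6, a lysosomal carrier known from macrophages, had 3, 5 and 9 counts in AAV8-TBG-GFP and 12, 15 and 10 counts in AAV8-TBG-Cre livers. Every Cre liver was above every GFP liver in CPM and in FPKM (exact permutation p = 0.1, the smallest possible), a pattern that 27.0% of all genes tested had in one or the other direction. The summed macrophage markers given above were also higher in Cre livers, although 1 of the 11, Marco, had a negative log2 fold change (-0.75). Among GFP livers, Slc2a6 was highest in replicate 3, where that sum was lowest (225 CPM). The part of macrophage RNA in the Slc2a6 difference was not tested. Slc2a10 had 5, 1 and 1 counts against 4, 16 and 3 counts, with overlapping groups (exact permutation p = 0.3). Both genes were too low for the main edgeR test. Without GFP replicate 3, Slc2a6 entered it and was called (log2 fold change 1.42, edgeR adjusted p = 0.235), against 18.6% of all genes. It also entered, and was not called, without GFP replicate 1 (0.61), GFP replicate 2 (0.83) or Cre replicate 3 (1.01). Nor was Slc2a6 called without a filter on low counts (0.91) or with DESeq2 (0.93).

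**Figure D2:**
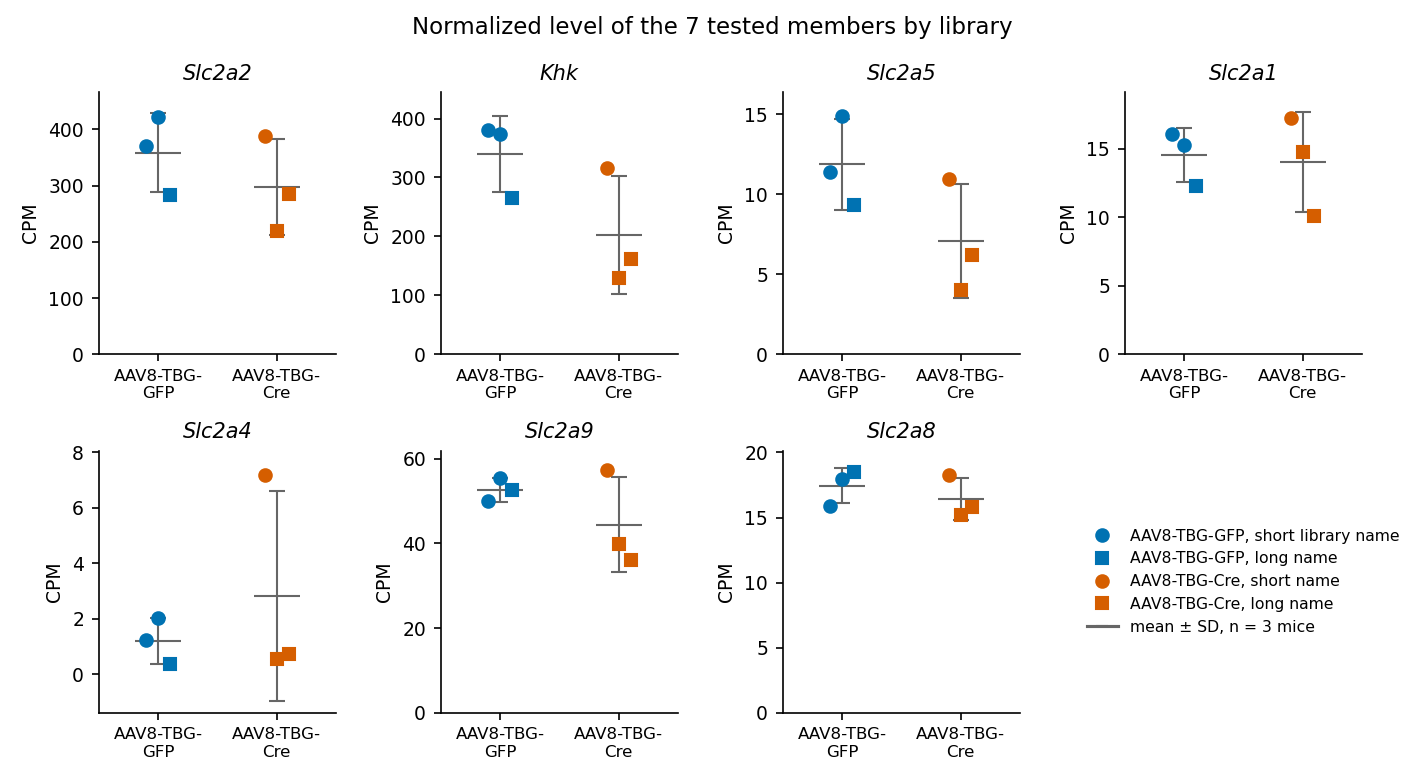
CPM of the 7 tested genes in each liver, with mean and SD (n = 3 mice) and marker shape for the form of the library name. Squares, the long-named libraries, lie below the circles for Slc2a2, Khk, Slc2a5, Slc2a1 and Slc2a4 within either vector, and AAV8-TBG-Cre replicate 1 (orange circle) stands apart for Slc2a4 at 7.21 CPM.

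The values of Khk, Slc2a2 and Slc2a5 separated the libraries by the form of their name. With the vector in the same fit, 5 of the 7 tested genes were called lower in the long-named libraries, against 7.79% of all genes called in that direction and 15.9% in either direction. This test was added after the data were seen. Short and long forms did not overlap in CPM for those 5 genes, which 21.6% of all genes showed in either direction and 11.2% with the long form lower. In FPKM the forms also did not overlap for Slc2a2, Slc2a4, Slc2a5 and Khk, but they overlapped for Slc2a1. The median log2 difference of the 7 genes, long minus short, was -0.56, and that of all genes was 0.01.

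Slc2a4 had the largest such difference, -3.05 (SE 0.42), and was the only one of the 7 to pass adjustment over all genes in edgeR (adjusted p = 0.0286, against 1.39% of all genes). Its adjusted p-value lay above 0.05 without any liver but GFP replicate 1, up to 0.363 without Cre replicate 1. With DESeq2, Khk (adjusted p = 0.000349), Slc2a2 (adjusted p = 0.00897) and Slc2a4 (adjusted p = 7.92e-06) passed, and with limma on log2(FPKM + 1) Khk did (adjusted p = 0.0468). Without adjustment, 10.5% of all genes were called by name form in DESeq2 and 14.1% in limma. The share of all genes passing adjustment in those fits is not given here, and the edgeR share cannot stand in for it. The log2 difference was -0.81 (SE 0.17, edgeR adjusted p = 0.0731) for Khk, -0.80 (SE 0.23, adjusted p = 0.152) for Slc2a5, -0.56 (SE 0.15, adjusted p = 0.124) for Slc2a2 and -0.41 (SE 0.16, adjusted p = 0.265) for Slc2a1. The call of Slc2a1 was lost with DESeq2, upper quartile scaling or limma and without any of the GFP livers or Cre replicate 1, with log2 differences from -0.54 to -0.30 when a liver was left out. Slc2a9, at -0.30 (SE 0.14), and Slc2a8, at -0.06 (SE 0.12), were not called. Without AAV8-TBG-Cre replicate 1, 2 of the 7 were called, Slc2a4 (-2.15) and Khk (-0.53), against 10.0% of all genes. With limma on log2(FPKM + 1), 3 were called, Khk, Slc2a2 and Slc2a5, against 14.1% of all genes, and Slc2a4 was too low to be tested.

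Differences within a form were compared with the pooled one, since 1 of 3 GFP and 2 of 3 Cre libraries had long names and the form moved with the vector. Among short-named libraries, the log2 ratio of Cre replicate 1 over the mean of GFP replicates 1 and 2 was -0.25 for Khk, -0.26 for Slc2a5 and -0.03 for Slc2a2. Among long-named libraries, the log2 ratio of Cre replicates 2 and 3 over GFP replicate 3 was -0.86 for Khk, -0.86 for Slc2a5 and -0.17 for Slc2a2. All 3 genes thus had negative ratios within either form, from groups of 1 and 2 livers that allow no test of their own. Slc2a9 differed in sign, with 0.12 among short-named and -0.46 among long-named libraries, and so did Slc2a8, with 0.11 and -0.25. Slc2a1 (0.14 and 0.01) and Slc2a4 (2.14 and 0.78) had positive ratios within either form. In the fit with vector and form together, the vector log2 fold changes in edgeR were -0.56 for Khk (adjusted p = 0.137), -0.55 for Slc2a5 (adjusted p = 0.236) and 1.73 for Slc2a4 (adjusted p = 0.0839). These 3 of the 7 genes were called there, against 19.4% of all genes, of which 8.82% were lower in Cre livers. None of the 7 passed an adjusted p-value of 0.05 there, against 1.59% of all genes.

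**Figure D3:**
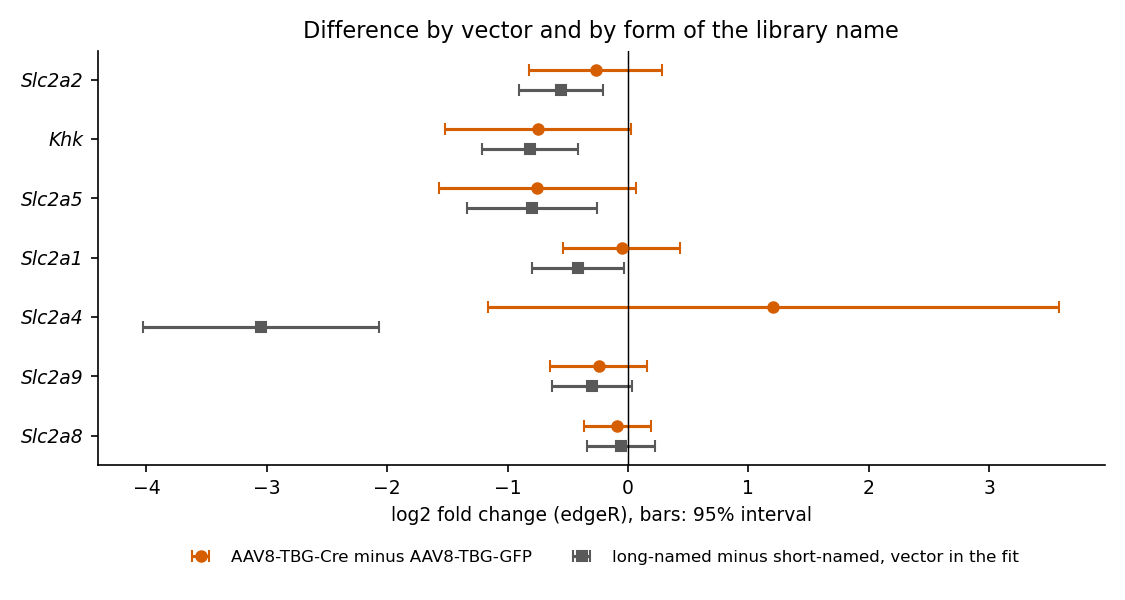
Log2 fold change with 95% interval in edgeR for the 7 tested genes, by vector (orange circles) and by form of the library name with the vector in the fit (grey squares). All 7 vector intervals include 0, and the 5 form intervals of Slc2a2, Khk, Slc2a5, Slc2a1 and Slc2a4 lie below 0.

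Cell markers were compared by form as well. Of 8 endothelial markers, 5 were called lower in long-named libraries, against 7.79% of all genes called lower and 15.9% in either direction. Their sum was 133.4 to 150.8 CPM there against 161.3 to 209.5 CPM in short-named ones. Of 11 macrophage markers, 3 were called higher and 2 lower in long-named libraries. Of 9 cholangiocyte markers, 2 were called higher and 0 lower, and of 4 tested erythroid markers 1 was called lower. None of the 8 hepatocyte markers was called by form, with sums of 80680 to 119400 CPM in long-named and 97850 to 106600 CPM in short-named libraries. The part of cell composition in the differences of Khk and the carriers was not tested.

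Over the 6 libraries the log2 CPM of Khk correlated with that of Slc2a5 at r = 0.97 and with that of Slc2a2 at r = 0.91, and Slc2a2 and Slc2a5 correlated at r = 0.94. These points share library, vector and name form, and the values are descriptions. The ratio of Khk to Slc2a2 in FPKM was 1.82, 1.56 and 1.66 in AAV8-TBG-GFP and 1.43, 1.04 and 1.00 in AAV8-TBG-Cre livers. Every Cre liver thus had less Khk for its Slc2a2 than every GFP liver, a ratio formed after the values were seen. Taken singly, Khk and Slc2a2 each overlapped between vectors. Of all single genes tested, 27.0% did not overlap by vector, and the share of gene ratios that would not was not computed. The 3 tested genes with the pattern nearest to Khk were Klhl2 (r = 0.9991), Scnn1a (r = 0.9972) and Car5a (r = 0.9964). Nearest to Slc2a2 were Slc25a11 (r = 0.9986), Ndfip1 (r = 0.9977) and Rbl2 (r = 0.9969).

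Khk counts were divided among 3 RefSeq transcripts. The 1455-base transcript held 86.0% ± 2.34 of them in AAV8-TBG-GFP and 79.7% ± 5.44 in AAV8-TBG-Cre livers (SD, n = 3 each, exact permutation p = 0.2). The 1590-base transcript held 11.5%, 15.8% and 12.3% in AAV8-TBG-GFP and 18.7%, 15.3% and 25.6% in AAV8-TBG-Cre livers, which overlapped (exact permutation p = 0.2). The 1320-base transcript held less than 1% in every liver, with 0.72%, 0.85% and 0.78% against 0.30%, 0.29% and 0.64%. For that one the groups did not overlap (exact permutation p = 0.1, the smallest possible), on 9 to 62 estimated counts. Slc2a9 had 4 transcripts, of which the 3403-base one held 88.7% ± 4.96 and 81.8% ± 3.30 (exact permutation p = 0.2). The counts of Slc2a6 fell on 1 of 2 transcripts in each library, and the other 7 genes had 1 transcript each. Shared fragments were divided by the counting program, so these shares are estimates.

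One of the sugar carriers listed beside the 10 genes passed adjustment over all genes by vector. Slc5a1 (SGLT1), which takes up glucose together with sodium, measured 1.68, 1.12 and 1.41 CPM in AAV8-TBG-GFP and 5.11, 8.42 and 4.14 CPM in AAV8-TBG-Cre livers. The groups did not overlap, and Slc5a1 rose 4.19-fold (log2 fold change 2.07, SE 0.33, edgeR adjusted p = 0.0414). It stood under an adjusted p-value of 0.05 in 5 of 16 alternative analyses, where the adjusted p-value ranged from 5.55e-06 to 0.184, and it was called without adjustment in 16 of 16. Adjustment was missed without any liver but Cre replicate 1, with log2 fold changes from 1.71 to 2.26 when a liver was left out. Epcam, a cholangiocyte marker, measured 3.46, 1.17 and 1.31 CPM against 8.02, 19.96 and 10.2 CPM, and like Slc5a1 it was highest in Cre replicate 2. The part of cholangiocyte RNA in the difference of Slc5a1 was not tested. Of the 10 other carriers listed, 3 had enough counts for the test, 1 rose and 0 fell, against 20.5% of all genes called in either direction. Slc37a4, the glucose 6-phosphate carrier of the endoplasmic reticulum, measured 197, 253 and 136 CPM against 281, 117 and 187 CPM, with a log2 difference of -0.81 (SE 0.20, edgeR adjusted p = 0.107) between long- and short-named libraries, called lower in the former. Slc2a7 and Slc5a2, the intestinal and the renal carriers, had no count in any library, where 3 counts correspond to at most 0.157 CPM.

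Of the 7 enzymes and regulators of fructose, polyol and early glucose metabolism, 1 was called higher and 0 lower in AAV8-TBG-Cre livers, against 20.5% of all genes called in either direction, with a median log2 fold change of -0.20. Akr1b3, the aldose reductase that turns glucose into sorbitol, measured 7.98, 7.24 and 6.33 CPM against 11.1, 12.6 and 8.04 CPM (log2 fold change 0.56, SE 0.20, edgeR adjusted p = 0.170). The call was lost without GFP replicate 2 (0.56) or 3 (0.46) and without Cre replicate 1 (0.52) or 2 (0.41). By name form, Tkfc (-0.70), the triokinase of the same route, and Gckr (-0.41), the glucokinase regulator, were called lower in long-named libraries.

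Among 10 transcription factors known for these genes, 1 was called lower and 1 higher by vector, a share near the 20.5% of all genes called. Mlxipl (ChREBP), the carbohydrate-response factor that binds with Mlx to E-box pairs, measured 343, 327 and 290 CPM in AAV8-TBG-GFP and 271, 143 and 215 CPM in AAV8-TBG-Cre livers. The groups did not overlap in CPM but overlapped in FPKM, and the log2 fold change was -0.61 (SE 0.23, edgeR adjusted p = 0.187). That call was lost without GFP replicate 1 (-0.57) or 2 (-0.60) and without Cre replicate 3 (-0.63). Foxa3, a forkhead factor of hepatocytes, was called higher by vector (0.68, SE 0.28, edgeR adjusted p = 0.226) and by name form (0.63). Its vector call was lost without GFP replicate 1 (0.52) or 2 (0.55) and without Cre replicate 3 (0.415). Srebf1, the lipogenic factor induced by insulin, had the pattern of Khk by name form, with 348, 277 and 137 CPM against 367, 91.3 and 95.3 CPM. It was lower in long-named libraries by a log2 difference of -1.58 (SE 0.19, edgeR adjusted p = 0.0203), and 1.39% of all genes passed adjustment by form. By name form, 1 of the 10 factors was called higher and 1 lower, against 15.9% of all genes called in either direction. The vector log2 fold change of Srebf1 was -0.46 (SE 0.58, edgeR adjusted p = 0.701).

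Of 11 genes of carrier traffic, 1 was called lower and 1 higher by vector, and 0 by name form, against 20.5% and 15.9% of all genes called. The share by vector was near that of all genes. Txnip, an arrestin-like protein known to draw GLUT1 and GLUT4 from the cell surface, measured 203, 327 and 99.8 CPM against 113, 135 and 87.0 CPM, with overlapping groups (log2 fold change -0.91, SE 0.39, edgeR adjusted p = 0.236). That call held in 4 of 16 alternative analyses and was lost without any 1 of 5 livers, with log2 fold changes from -1.26 to -0.44 when a liver was left out. Lnpep, the aminopeptidase of GLUT4 vesicles, measured 1.22, 2.76 and 2.67 CPM against 4.87, 5.59 and 2.65 CPM (0.98, SE 0.39, edgeR adjusted p = 0.211), and its call was lost without GFP replicate 1 (0.68), Cre replicate 1 (0.90) or Cre replicate 2 (0.76), among others, and held in 11 of 16 alternative analyses.

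**Figure D4:**
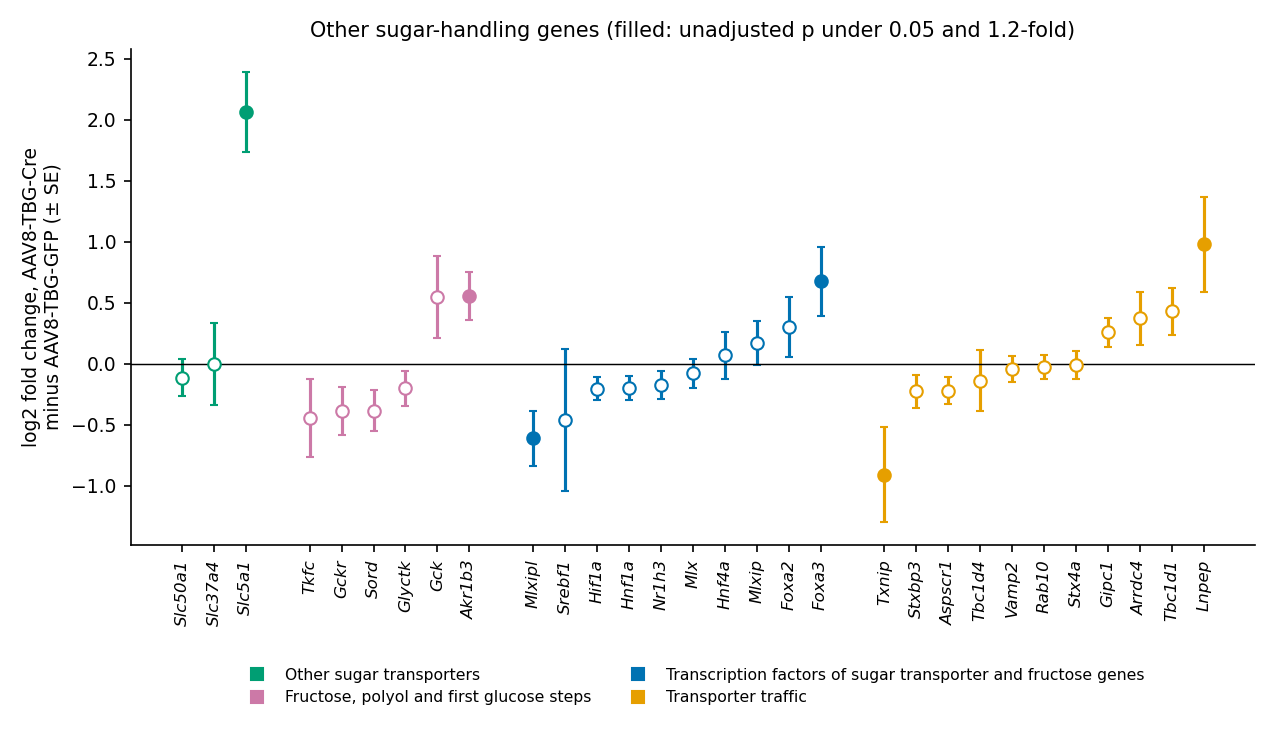
Log2 fold change with SE in edgeR, AAV8-TBG-Cre minus AAV8-TBG-GFP (n = 3 mice each), for tested genes of 4 lists, with filled points for called genes. Slc5a1, at 2.07, lies highest, and Txnip, at -0.91, lies lowest.

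On GRCm38 the genes lie at chr4:119108745-119137330 (Slc2a1), chr3:28697903-28728361 (Slc2a2), chr6:122727809-122802363 (Slc2a3), chr11:69942286-69948216 (Slc2a4), chr4:150119344-150144168 (Slc2a5), chr2:27021363-27028000 (Slc2a6), chr2:32972981-32982083 (Slc2a8), chr5:38349272-38503147 (Slc2a9), chr2:165503897-165519917 (Slc2a10) and chr5:30921436-30931248 (Khk). The spans of Slc2a1, Slc2a2, Slc2a3 and Slc2a9 overlap with other annotated genes (Gm52706 and Gm12867, 1700112D23Rik, Gm4482 and Gm40290), none of which had a count among the genes used here. Whether counting used strand is not given in the sources used here.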

How the data were processed

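Bulk RNA-seq of 6 livers was analysed, 3 per vector, grouped by the sample labels. The authors deposited an expected count per RefSeq transcript, an estimate that need not be whole, and FPKM per transcript and per gene. The submitters' processing notes name HISAT2, Bowtie2, RSEM and mm10, while STAR, HTSeq and DESeq2 are named in the paper, and which of them made these files was not established. Expected counts of a gene's transcripts were added up and rounded. Library pairs of a group differed by more than counting noise (chi-square per gene of 26.0 or more).

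All 13431 genes passing filterByExpr were fitted with edgeR 4.0.16 in R 4.3.3 (TMM, quasi-likelihood test, vector as factor, Benjamini-Hochberg adjustment), after testing on simulated data. SE came from the quasi-F statistic. FPKM served for levels between genes. The fit was repeated with DESeq2 1.42.0, upper quartile and RLE scaling, other filters (none, at least 10 counts in every library), a replicate block, name form as covariate, limma 3.58.1 on genes of at least 0.5 FPKM in at least 3 libraries, with log2(FPKM + 1) or log2(FPKM + 0.1), the former without that filter, and leaving out each liver. Tests of name form, and of pathway genes under the alternatives, were added after seeing the data. The labels give one liver per library without naming litters or dates, and p-values measure the spread between these livers.

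The 10 genes and the lists were chosen with earlier results of these data known. The 10 were named whatever their values, pathway genes where called by vector and otherwise by counts, and genes of like pattern as the 3 highest Pearson correlations with Slc2a2 and Khk, which also had the smallest p-value. Epcam, Slc37a4, Tkfc, Gckr, Srebf1, Slc2a7 and Slc5a2 were named after their values were seen. Gene positions and promoters came from RefSeq tables of GRCm38, the assembly called mm10. Protein sequences were not used here, and 1 gene of the fructose list is not reported here.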

Additional observations from a re-analysis of the deposited data

How the results depend on the processing

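The count of the 10 genes called by vector was 0 in the main analysis, against 20.5% of all genes. It was 2 with DESeq2 (16.2% of all genes), 2 without a filter on low counts (17.6%) and 1 with the replicate block (19.3%). With name form as a covariate it was 3 (19.4%). When each liver was left out it was 0 to 4, with 4 in the absence of Cre replicate 1 (27.3%). In the absence of GFP replicate 3 it was 2, Khk and Slc2a6 (18.6%). At an adjusted p-value under 0.05 the count was 0, except for 2 without AAV8-TBG-Cre replicate 1, where 928 of 13678 genes tested passed. All Cre libraries left in that fit had long names, so vector and name form were mixed more there. In the main analysis 125 of 13431 genes passed, and leaving out livers gave 0 to 2 of the 10. The count called by name form was 5 in the main analysis (15.9% of all genes) and 3 with limma on log2(FPKM + 1) (14.1%). It was 2 to 5 when each liver was left out (10.0% to 17.1% of all genes). Of 109 alternative log2 fold changes of the 7 genes, 85 kept direction and side of the threshold, 13 newly passed it and 11 changed sign. The sign changes were Slc2a1 with upper quartile scaling (0.014), with name form in the fit (0.08), with limma on log2(FPKM + 1) (0.080, also without the filter) and log2(FPKM + 0.1) (0.088), and without either GFP replicate 1 (0.018) or Cre replicate 3 (0.14), Slc2a8 with limma on log2(FPKM + 1) (0.071, also without the filter) and log2(FPKM + 0.1) (0.078), and Slc2a4 without AAV8-TBG-Cre replicate 1 (-0.95). The cause was not tested. Leaving out each liver gave -0.23 to 0.14 for Slc2a1 and -0.95 to 1.81 for Slc2a4. Limma on FPKM shifted the median of all genes to 0.11 and 0.14. Same-numbered livers of the groups deviated with correlations of 0.01, -0.26 and 0.21, so the numbers were not taken as pairs, and in the replicate block Khk had a log2 fold change of -0.83 (edgeR adjusted p = 0.187), while the call of Lnpep was lost (0.98). Slc2a3, Slc2a6 and Slc2a10, with 1 to 20 counts per library, are limited by depth.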
